A study of Homo sapiens with 4 samples.

Results

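DNA replication fork and origin genes were examined in the cell lines RL-95-2 and HEC-1-A, both established from human endometrial cancer, after transfection with a tRF-20-S998LO9D mimic or with the negative control of mimics. The group held 46 genes, taken by symbol from the 22494 features of the deposited counts table, and all 46 were found there and passed the filter on low counts. They cover origin licensing (4 genes), the MCM2 to MCM7 helicase (6), helicase activation (6), polymerase alpha and primase (4), polymerases delta and epsilon (5), the sliding clamp and its loader (6), lagging-strand maturation (2), single-strand DNA binding (3), nucleotide enzymes (4) and replication-coupled chromatin and DNA methylation factors (4), with E2F1 and the histone mRNA-binding protein gene SLBP. Poly(A) RNA from 1 library per line and transfection was sequenced, 4 libraries in all, and both lines carry no other agent in the labels. The mimic imitates a short fragment cut from a transfer RNA, and the labels give neither its dose nor the time after transfection.

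Replication origins are loaded with the MCM2 to MCM7 ring in G1 phase by the origin recognition complex, CDC6 and CDT1. In S phase the ring is turned into the active CMG helicase by CDC45 and the GINS complex, and polymerases alpha, delta and epsilon copy the opened strands with the help of the clamp PCNA. Many of these genes are known targets of E2F transcription factors, and their mRNAs are known to be high in dividing cells, so they are often read as a proliferation signature.

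Library totals ranged from 33575882 to 46220053 counts. Every member had at least 491 counts in every library. The epithelial markers EPCAM, CDH1, KRT8, KRT18, KRT19 and CLDN4 were all measured in both lines, and the endometrial lineage gene PAX8 stood between 220 and 353 CPM (library-scaled counts, with TMM factors from trimmed means), HOXA10 at no more than 5.56 CPM, ESR1 and FOXA2 stayed under 1 CPM, and SOX17 and PGR had 0 counts in all 4 libraries. The summed level of the epithelial markers was 1292 and 1134 CPM in HEC-1-A and 2026 and 3478 CPM in RL-95-2 (control, then mimic), where KRT8 had 388 and 1444 CPM. Of 6 blood and immune markers, 0 reached a mean of 1 CPM in either line, with summed levels from 0.06 to 1.10 CPM. The endothelial gene CDH5 stood at 14.04 and 24.5 CPM in the RL-95-2 libraries and had 0 counts in those of HEC-1-A. The fibroblast gene COL1A1 stood at 78.2 and 56.6 CPM in RL-95-2 and 2.96 and 6.39 CPM in HEC-1-A (control, then mimic). CDH5 and COL1A1 made up most of their lists in RL-95-2, with summed levels of 14.2 and 24.7 CPM (endothelial) and 80.6 and 58.6 CPM (fibroblast). PECAM1, VWF, KDR, PDGFRA, DCN and LUM, also on these lists, stayed under 1 CPM in all 4 libraries. Whether cells of another kind take part in any difference below was not tested.

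In RL-95-2, 42 of the 46 replication genes were higher in the mimic than in the control library, with a median log2 ratio of 0.64, or 1.56-fold. In HEC-1-A, 34 of the 46 were lower in the mimic library, with a median of -0.07, or 1.05-fold lower. The signs of ORC6, PRIM1 and RFC4 in RL-95-2 and of POLA2, PRIM2, RFC1, RFC2, RPA1 and RRM1 in HEC-1-A, all close to 0, changed under at least 1 of the alternatives run (scaling, prior count, FPKM, GC and length). The member ratios ran from -0.40 to 1.58 in RL-95-2 and from -0.42 to 0.16 in HEC-1-A. Among all genes averaging 1 CPM or more in a line, the median log2 ratio was 0.00 in RL-95-2 (SD 0.71 over 13151 genes) and 0.02 in HEC-1-A (SD 0.35 over 12981 genes). The share of all genes above 0 in RL-95-2 was 50.1%, against 91.3% of the members, and the share of all genes below 0 in HEC-1-A was 46.4%, against 73.9% of the members. These are RNA levels of whole cultures, in which a different share of replicating cells and a different amount of RNA per cell cannot be told apart.

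At least 2-fold higher in the RL-95-2 mimic library were 8 members (17.4%), where 4.71% of all genes were that much higher and 6.52% that much lower. They were MCM5, GINS2, UHRF1, ORC1, LIG1, E2F1, MCM6 and POLD1. Just inside this limit was POLD1 at a log2 ratio of 1.03, and just outside were MCM4 at 0.99 and TYMS at 0.96, so the number depends on where the limit lies. It also depends on the scaling, with 14 members when scaled by the library total, 14 on log2(FPKM + 1) and 15 on log2(FPKM + 0.1). No member was 2-fold lower in RL-95-2. In HEC-1-A no member was 2-fold apart in either direction, where 0.871% of all genes were that much higher and 0.239% that much lower. With 1 library per transfection in a line, these ratios have no replicate check. The 95% counting interval, an exact interval from the 2 counts that covers counting error only, lay above 0 for 41 members (89.1%) and below 0 for 2 (4.35%) in RL-95-2, where it did so for 39.9% and 40.5% of all genes. In HEC-1-A it lay below 0 for 22 members (47.8%), above 0 for 4 (8.70%) and across 0 for 20, where 23.5% of all genes had it below and 29.5% above 0. This interval narrows as counts grow, so these shares also depend on how many counts a gene has.

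**Figure D1:**
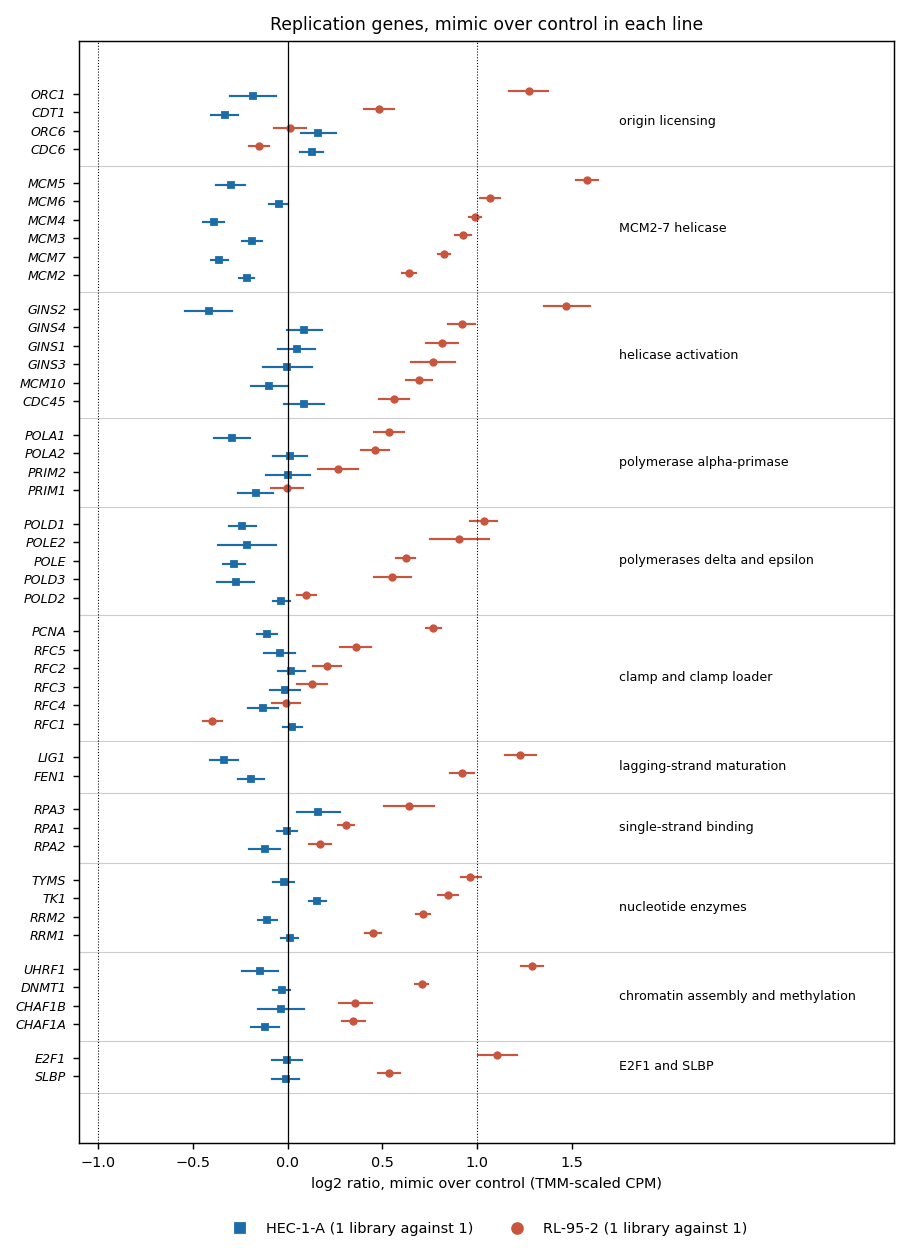
Log2 ratio of mimic over control (x axis, TMM-scaled CPM) for the 46 genes by role, with squares for HEC-1-A, circles for RL-95-2 and bars for 95% counting intervals. Circles lie right of 0 for 42 genes, and dotted lines mark a 2-fold difference, which 8 circles and no square pass.

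Over both lines, the edgeR quasi-likelihood test with the line as a block called 0 of the 46 members, as it called 0% of 15957 genes (167 genes and 0 members at an unadjusted p under 0.05). The lowest unadjusted p among the members was 0.11, and the adjusted p was 0.9999 for the members. DESeq2 called 2 genes and limma-voom 0, and neither called a member. MCM5 had the largest log2 fold change over both lines, 0.64 (SE 0.45, n = 2 per transfection), since its ratio was -0.30 for HEC-1-A but 1.58 for RL-95-2. A ratio below 0 in HEC-1-A and above 0 in RL-95-2 was found for 32 members (69.6%), against 26.0% of 11913 genes measured in both lines. This share of members follows mostly from the shares in each line, 91.3% above 0 in RL-95-2 and 73.9% below 0 in HEC-1-A. Opposite signs with both counting intervals clear of 0 were found for 21 members (45.7%), against 26.9% of those genes. By sign alone, 10 members were above 0 in both lines, 2 (PRIM1 and RFC4) were below 0 in both, and 2 (CDC6 and RFC1) were above 0 in HEC-1-A and below 0 in RL-95-2. The test of a difference between the responses of the lines cannot be made with 1 library in each cell of the design. Any such difference enters the error of the test over both lines.

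**Figure D2:**
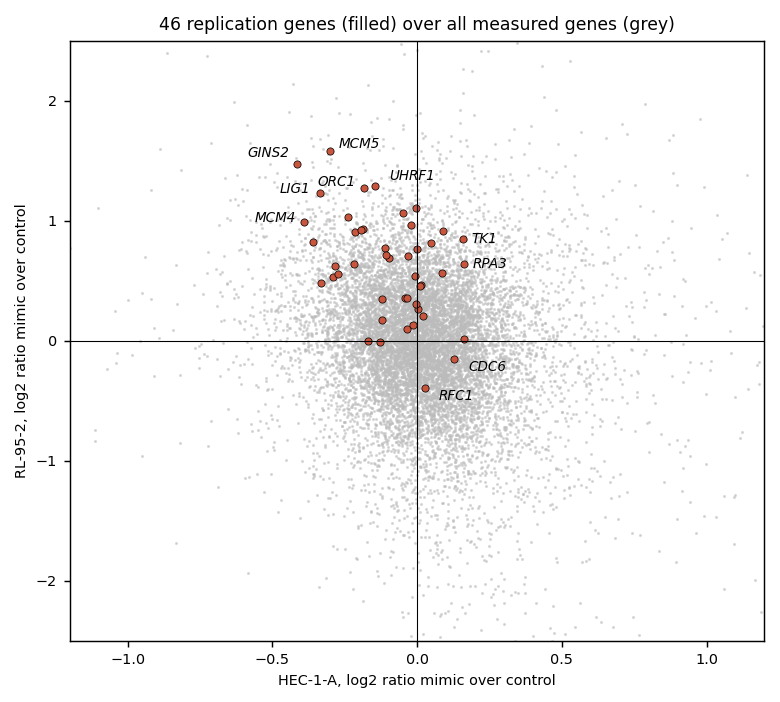
Log2 ratio of mimic over control in RL-95-2 (y axis) against that in HEC-1-A (x axis) for the 46 genes (filled) and for 11913 genes averaging 1 CPM or more in each line (grey), of which 112 lie outside the axes. The upper left part, lower in HEC-1-A and higher in RL-95-2, holds 32 of the 46 genes.

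The promoters of the members that differed most in RL-95-2 are shown beside those of the members that differed least, to set the letters of both side by side. RefSeq windows of 250 bases before to 50 bases after a transcription start (GRCh38.p14) were matched by symbol for 40 of the 46 members. The E2F letters TTTCCCGC, TTTGGCGC, TTTCGCGC or TTTGCCGC were searched on both strands, and matches on opposite strands may overlap. The 200 bases just before the start are printed 5′ to 3′ on the gene's strand, with E2F letters in capitals. The first 6 had the highest log2 ratios in RL-95-2 among members with a window, and PRIM1 and RFC4 the ratios nearest 0. For UHRF1, which has 3 starts in the table, the most upstream is shown.
GINS2, chr16:85688955-85689154, minus strand: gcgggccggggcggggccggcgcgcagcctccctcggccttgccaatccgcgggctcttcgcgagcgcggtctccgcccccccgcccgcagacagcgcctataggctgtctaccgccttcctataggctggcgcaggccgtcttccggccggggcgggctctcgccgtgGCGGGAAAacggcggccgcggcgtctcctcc
UHRF1, chr19:4909301-4909500, plus strand: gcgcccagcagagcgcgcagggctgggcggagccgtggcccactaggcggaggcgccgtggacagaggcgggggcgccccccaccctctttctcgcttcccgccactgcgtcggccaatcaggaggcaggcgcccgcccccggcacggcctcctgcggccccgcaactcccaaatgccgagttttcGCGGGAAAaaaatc
ORC1, chr1:52404424-52404623, minus strand: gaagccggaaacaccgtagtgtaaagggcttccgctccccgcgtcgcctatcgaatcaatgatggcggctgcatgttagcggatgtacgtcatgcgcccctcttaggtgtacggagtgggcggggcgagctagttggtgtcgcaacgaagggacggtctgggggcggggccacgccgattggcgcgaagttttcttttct
LIG1, chr19:48170345-48170544, minus strand: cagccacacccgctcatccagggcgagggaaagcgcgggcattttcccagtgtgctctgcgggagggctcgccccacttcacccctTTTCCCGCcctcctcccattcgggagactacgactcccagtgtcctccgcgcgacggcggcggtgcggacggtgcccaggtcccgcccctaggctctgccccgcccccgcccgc
E2F1, chr20:33686386-33686585, minus strand: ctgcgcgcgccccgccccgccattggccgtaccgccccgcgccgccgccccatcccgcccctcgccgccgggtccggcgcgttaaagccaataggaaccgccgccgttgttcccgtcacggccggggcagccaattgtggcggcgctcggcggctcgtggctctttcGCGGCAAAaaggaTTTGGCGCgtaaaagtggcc
MCM6, chr2:135876444-135876643, minus strand: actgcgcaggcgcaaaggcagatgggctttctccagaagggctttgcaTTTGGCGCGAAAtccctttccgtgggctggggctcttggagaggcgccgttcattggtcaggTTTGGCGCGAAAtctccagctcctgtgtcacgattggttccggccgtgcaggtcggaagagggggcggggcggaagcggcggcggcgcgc
PRIM1, chr12:56752324-56752523, minus strand: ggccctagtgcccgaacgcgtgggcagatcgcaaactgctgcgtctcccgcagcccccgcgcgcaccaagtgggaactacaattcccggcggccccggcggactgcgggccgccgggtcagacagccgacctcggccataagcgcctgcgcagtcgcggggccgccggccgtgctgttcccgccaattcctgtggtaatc
RFC4, chr3:186806483-186806682, minus strand: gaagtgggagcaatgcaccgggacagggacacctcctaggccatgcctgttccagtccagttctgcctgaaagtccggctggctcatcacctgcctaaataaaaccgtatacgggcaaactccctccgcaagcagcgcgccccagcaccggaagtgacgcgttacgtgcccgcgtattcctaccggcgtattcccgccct

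The window of GINS2 held 1 match, 31 bases before the start, that of UHRF1 1 at 14 bases and that of LIG1 1 at 114 bases. E2F1 itself had 2 matches, at 33 and 20 bases before its start. MCM6 had 4, in 2 places where matches on the opposite strands overlap, beginning 152 and 90 bases before the start. The windows of ORC1, PRIM1 and RFC4 held none of these exact letters, and near matches were not counted. ORC1 was thus among the members that differed most in RL-95-2 without these letters in its window.

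Of the 40 members with a window, 20 held E2F letters, against 3.99% of 27305 genes and 3.31% of all 35116 windows in the table. All 4 of the MCM2 to MCM7 genes with a window, MCM2, MCM3, MCM6 and MCM7, held them. Of the 5 helicase activation genes with a window, GINS1, GINS2 and GINS3 did, and of the 4 nucleotide enzyme genes 1, TYMS. The 20 members with E2F letters had a median log2 ratio of 0.79 in RL-95-2 and -0.13 in HEC-1-A. The 20 without had medians of 0.36 and -0.03. The ranges in RL-95-2 overlapped nearly whole, from -0.15 to 1.47 with the letters and from -0.40 to 1.27 without. CDC6, which was lower in RL-95-2, and RFC3, at 0.13, also held them. The CCAAT box, CCAAT, was found for 24 of the 40 (60.0%, against 39.7% of all genes), and the GC box, GGGCGG, for 30 (75.0%, against 48.3%). A split of the ratios was not particular to E2F letters. Members with the GC box had medians of 0.67 in RL-95-2 and -0.10 in HEC-1-A, against 0.36 and -0.02 without. At least 2-fold higher in RL-95-2 were 7 with and 0 without the GC box, and 5 with and 2 without E2F letters. For the CCAAT box the RL-95-2 medians were 0.66 with and 0.59 without. The CHR letters TTTGAA or TTCGAA, an element of many mitotic promoters, were found for 2 of the 40, MCM6 and RRM1 (5.0%, against 19.5%). These matches describe letters and not bound sites.

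**Figure D3:**
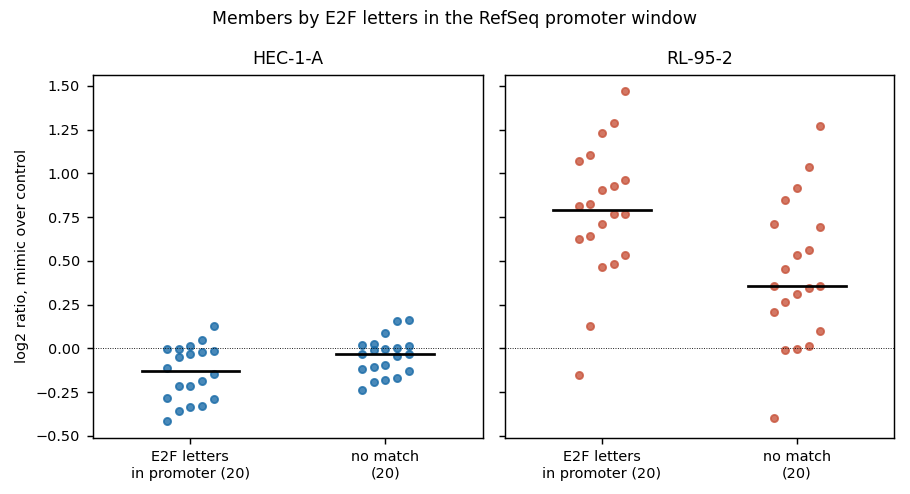
Log2 ratio of mimic over control for the 40 genes with a RefSeq promoter window, by whether it holds E2F letters (20 genes) or not (20 genes), in HEC-1-A (left) and RL-95-2 (right). Bars are medians, 0.79 with and 0.36 without the letters in RL-95-2, and the points of both groups overlap.

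Among origin licensing genes, ORC1 stood apart from its partners. ORC1, the ATPase subunit of the origin recognition complex, had 31.3 CPM under control and 27.6 CPM under mimic in HEC-1-A, against 26.2 CPM under control and 63.3 CPM under mimic in RL-95-2. Its RL-95-2 mimic library was thus the highest by 2.41-fold over its control (log2 ratio 1.27, counting interval 1.17 to 1.38), while the other 3 libraries lay close together. ORC6, the smallest subunit of the same complex, was nearly level in RL-95-2, at 52.8 and 53.2 CPM, and had a log2 ratio of 0.16 in HEC-1-A (48.8 and 54.6 CPM). CDT1, which brings the MCM ring to the origin, had 94.9 and 75.4 CPM in HEC-1-A and 50.5 and 70.5 CPM in RL-95-2. Its ratios, -0.33 and 0.48, were of opposite sign and brought the lines closer together. CDC6, the licensing ATPase, was the highest in the RL-95-2 control library. It had 115 and 126 CPM in HEC-1-A and 149 and 134 CPM in RL-95-2, with log2 ratios of 0.13 and -0.15, the reverse of most members.

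All 6 subunits of the MCM helicase had higher levels under the mimic in RL-95-2 and lower ones in HEC-1-A, with medians of 0.96 and -0.26. MCM5, on chromosome 22 at 35400063 to 35425430 (GRCh38, GENCODE 29), had 83.7 CPM under control and 68.0 CPM under mimic in HEC-1-A, against 82.4 CPM under control and 246 CPM under mimic in RL-95-2. It was the member with the largest ratio in RL-95-2, 2.99-fold higher (interval 1.52 to 1.64 on the log2 scale), from control levels that were nearly equal in the lines. MCM6 had 184 and 178 CPM in HEC-1-A and 103 and 216 CPM in RL-95-2 (log2 ratios -0.05 and 1.07), so its RL-95-2 control library was the lowest of the 4. MCM4 had 156 and 119 CPM in HEC-1-A and 328 and 652 CPM in RL-95-2, with log2 ratios of -0.39 and 0.99. The 652 CPM was the highest CPM of any member, a unit that does not allow for transcript length. Per length, PCNA (220 FPKM) and MCM7 (165 FPKM) stood above MCM4 (150 FPKM) in the RL-95-2 mimic library. Both RL-95-2 libraries of MCM4 lay above both of HEC-1-A. The log2 ratios, HEC-1-A first, were -0.19 and 0.93 for MCM3, -0.36 and 0.82 for MCM7 and -0.22 and 0.64 for MCM2, the smallest of the 6 in RL-95-2. In an unstranded count, 8.94% of the exonic bases of MCM7 would share reads with AP4M1 on the opposite strand, and whether counting used strand is not given in the sources used here.

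Levels between genes were compared in FPKM, the authors' values per length of transcript. The 6 subunits work in a 1:1 ring, but their FPKM differed by 3.46-fold (control) and 3.66-fold (mimic) in HEC-1-A, and by 4.21-fold (control) and 3.01-fold (mimic) in RL-95-2. In 3 of the 4 libraries MCM5 was the lowest, at 21.0, 16.7 and 20.2 FPKM, and in the RL-95-2 mimic library, where MCM5 reached 66.3 FPKM, MCM6 was the lowest at 54.9. MCM2 was the highest in both HEC-1-A libraries (72.6 and 61.1 FPKM) and MCM7 in both of RL-95-2 (85.1 and 165 FPKM). As a share of the summed FPKM of the ring, MCM5 made up 6.86% (control) and 10.7% (mimic) in RL-95-2, against 7.34% and 7.06% in HEC-1-A. The summed FPKM of the 6 genes was 286 (control) and 237 (mimic) for HEC-1-A, against 295 and 619 for RL-95-2, so the control libraries of the lines differed little and the RL-95-2 mimic library stood apart.

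**Figure D4:**
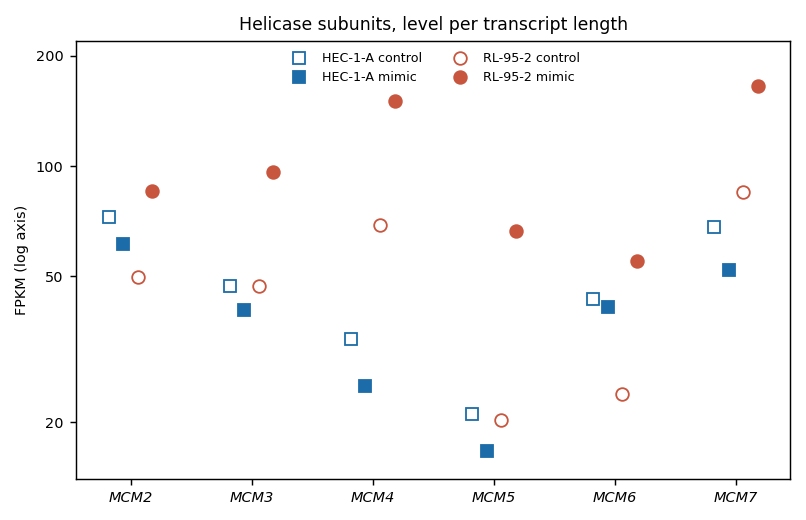
FPKM (log axis) of the 6 helicase subunits in each of the 4 libraries, with squares for HEC-1-A, circles for RL-95-2, open symbols for control and filled for mimic. The filled circles are the highest for every subunit, and MCM5 is the lowest subunit in the other 3 libraries.

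All 6 helicase activation genes had higher RL-95-2 levels under the mimic, with a median log2 ratio of 0.79, and their HEC-1-A median was 0.02. GINS2, a subunit of the GINS complex on chromosome 16 at 85676198 to 85690073, had 33.1 CPM under control and 24.8 CPM under mimic in HEC-1-A, against 18.2 CPM under control and 50.4 CPM under mimic in RL-95-2. The RL-95-2 libraries enclosed those of HEC-1-A, with the widest gap of the group (log2 ratio 1.47, 2.77-fold), and the HEC-1-A ratio of -0.42 was the lowest of all members. The other GINS genes were nearly level in HEC-1-A and higher in the RL-95-2 mimic library, GINS1 at 0.05 and 0.82, GINS3 at 0.00 and 0.77 and GINS4 at 0.09 and 0.92. The 4 proteins form 1 complex, and in HEC-1-A GINS2 was the one of the 4 whose counting interval lay clear of 0. CDC45, the helicase cofactor, had 36.2 and 38.5 CPM in HEC-1-A and 53.1 and 78.4 CPM in RL-95-2, the smallest ratio of the group in RL-95-2 at 0.56. MCM10, which helps to activate the helicase, had ratios of -0.10 and 0.69. Both RL-95-2 libraries were above both HEC-1-A libraries for CDC45, GINS4 and MCM10.

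**Figure D5:**
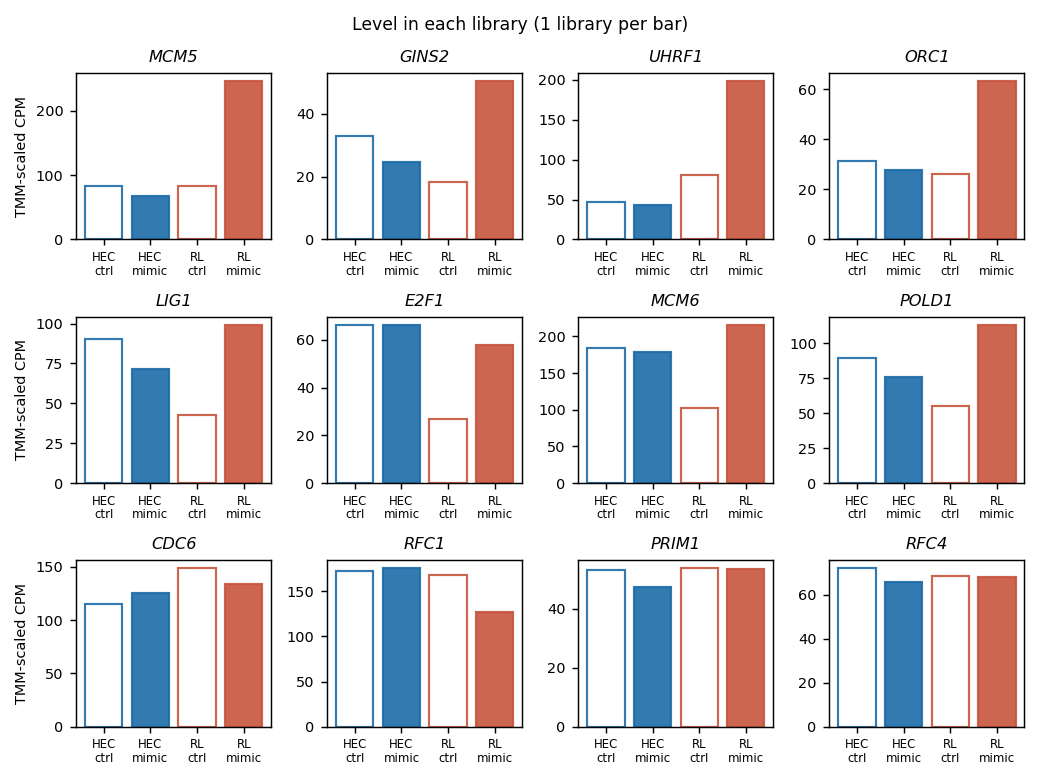
TMM-scaled CPM (y axis) in each of the 4 libraries for the 8 genes at least 2-fold higher in the RL-95-2 mimic library and for CDC6, RFC1, PRIM1 and RFC4, which were level or lower there. Open bars are control and filled bars mimic libraries, with 1 library per bar and no error, and the y axes differ between genes.

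Ratios were smaller among the genes that start strands. POLA1, the catalytic subunit of polymerase alpha, had 50.01 and 40.8 CPM in HEC-1-A and 51.8 and 75.1 CPM in RL-95-2 (log2 ratios -0.29 and 0.53), the highest in RL-95-2 of this group. POLA2, its accessory subunit, had 0.01 and 0.46. PRIM2, the large primase subunit, had 0.00 and 0.27. PRIM1, the catalytic primase subunit, had 53.1 and 47.3 CPM in HEC-1-A and 53.7 and 53.6 CPM in RL-95-2, where it was level (log2 ratio 0.00, interval -0.09 to 0.08). Of the 4, PRIM1 was thus alone in having no difference beyond counting error in RL-95-2.

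All 5 polymerase delta and epsilon genes were above 0 in RL-95-2 and below 0 in HEC-1-A. POLD1, the catalytic subunit of polymerase delta, had 89.3 and 75.7 CPM in HEC-1-A and 55.4 and 113 CPM in RL-95-2 (log2 ratios -0.24 and 1.03). Its RL-95-2 control library was the lowest and its RL-95-2 mimic library the highest of the 4. POLD2, the small subunit that binds POLD1, had 212 and 207 CPM in HEC-1-A and 139 and 149 CPM in RL-95-2. Its ratios, -0.03 and 0.10, were the smallest of the group in size, and both its HEC-1-A libraries lay above both of RL-95-2. POLD3 had -0.27 and 0.55. POLE, the leading-strand polymerase, had -0.28 and 0.62, and its partner POLE2 -0.21 and 0.90. FPKM of the 5 ran from POLE2 at 6.55 to POLD2 at 73.5 in the RL-95-2 control library, 11.2-fold, the widest of the role groups in that library.

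Clamp and loader genes differed in the size of their RL-95-2 ratios, and 4 of the 6 were above 0 there. PCNA, the sliding clamp, had 159 and 148 CPM in HEC-1-A and 183 and 312 CPM in RL-95-2 (log2 ratios -0.11 and 0.77), and at 220 FPKM it was the highest member per length in the RL-95-2 mimic library. RFC1, the large subunit of the loader, on chromosome 4 at 39287456 to 39366375, had the lowest mimic over control ratio of all members in RL-95-2. RFC1 had 173 and 176 CPM in HEC-1-A and 168 and 128 CPM in RL-95-2, where the mimic library was 1.32-fold lower (log2 ratio -0.40, interval -0.45 to -0.35) and stood below the other 3. The small loader subunits had RL-95-2 ratios of 0.36 for RFC5, 0.21 for RFC2, 0.13 for RFC3 and -0.01 for RFC4. In HEC-1-A the 5 loader genes ran from -0.13 for RFC4 to 0.03 for RFC1. PCNA was thus the single gene of the 6 above 0.5 in RL-95-2.

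Both lagging-strand genes had their higher RL-95-2 level under the mimic. LIG1, the ligase that seals Okazaki fragments, had 90.3 and 71.6 CPM in HEC-1-A and 42.4 and 99.3 CPM in RL-95-2, with log2 ratios of -0.34 and 1.23 (2.34-fold higher). FEN1, the flap nuclease, had 91.7 and 80.2 CPM in HEC-1-A and 72.0 and 136 CPM in RL-95-2, with log2 ratios of -0.19 and 0.92. For both genes the RL-95-2 control library was the lowest and the RL-95-2 mimic library the highest. The RPA genes, whose products coat single-stranded DNA, had smaller RL-95-2 ratios. RPA3 had 31.4 and 35.1 CPM in HEC-1-A and 18.8 and 29.3 CPM in RL-95-2 (log2 ratios 0.16 and 0.64). RPA1 had 0.00 and 0.31. RPA2 had 67.8 and 62.3 CPM in HEC-1-A and 110 and 124 CPM in RL-95-2 (log2 ratios -0.12 and 0.17), with the RL-95-2 libraries above those of HEC-1-A.

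Each nucleotide enzyme gene had its higher RL-95-2 level under the mimic, by 0.45 to 0.96 on the log2 scale. In HEC-1-A the ratios ran from -0.11 for RRM2 to 0.16 for TK1, both with counting intervals clear of 0. TYMS, thymidylate synthase, had 143 and 141 CPM in HEC-1-A and 106 and 206 CPM in RL-95-2 (log2 ratios -0.02 and 0.96). Its value would be uncertain in an unstranded count, because 39.1% of its exonic bases overlap ENOSF1 on the opposite strand. Whether counting used strand is not given. Overlaps with genes absent from the counts table were 35.1% for POLA2, 22.7% for MCM2, 21.2% for GINS4 and 20.2% for RRM2, among others. TK1, thymidine kinase, had 193 and 215 CPM in HEC-1-A and 108 and 194 CPM in RL-95-2, and was above 0 in both lines (0.16 and 0.85). RRM1 and RRM2, the large and small subunits of ribonucleotide reductase, had -0.11 and 0.71 for RRM2 and 0.01 and 0.45 for RRM1. RRM1 had 208 and 209 CPM in HEC-1-A and 174 and 238 CPM in RL-95-2, the smallest RL-95-2 ratio of the 4.

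UHRF1, which binds hemimethylated DNA and recruits the maintenance methyltransferase, had 47.6 CPM under control and 43.0 CPM under mimic in HEC-1-A, against 81.3 CPM under control and 198 CPM under mimic in RL-95-2. It was 2.44-fold higher in the RL-95-2 mimic library, and both RL-95-2 libraries were above those of HEC-1-A. DNMT1, that methyltransferase, stood at -0.03 (HEC-1-A) and 0.71 (RL-95-2) on the log2 scale. The chromatin assembly factor genes had smaller ratios, with CHAF1A at 83.0 and 76.4 CPM in HEC-1-A and 88.1 and 112 CPM in RL-95-2 (-0.12 and 0.35) and CHAF1B at -0.03 and 0.36. E2F1, a transcription factor of the S phase genes, was level in HEC-1-A, at 66.4 and 66.2 CPM, and stood at 26.9 and 57.9 CPM in RL-95-2 (log2 ratio 1.11, 2.15-fold higher). The RL-95-2 mimic library thus came near the HEC-1-A level of E2F1, and the RL-95-2 control library was the lowest. SLBP had 84.2 and 83.7 CPM in HEC-1-A and 90.5 and 131 CPM in RL-95-2, with a log2 ratio of 0.54 there.

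Over the 4 libraries, the RL-95-2 mimic library had the highest level for 34 members (73.9%), against 31.0% of 11913 genes, and the RL-95-2 control library the lowest for 22 (47.8%, against 25.5%). The HEC-1-A mimic library was the lowest for 18 (39.1%, against 22.3%). The lines themselves were compared over 2 libraries each with the transfection in the model, so that differing responses of the lines again enter the error. By the edgeR test, 6 members (13.0%) were higher in RL-95-2, where 18.3% of all genes were, and 0 members were higher in HEC-1-A, where 16.7% of all genes were. MCM4 was 3.40-fold higher in RL-95-2 (log2 fold change HEC-1-A over RL-95-2 -1.77, SE 0.39, n = 2 per line, edgeR adjusted p = 0.015), and UHRF1 2.81-fold (-1.49, SE 0.37, adjusted p = 0.024). RPA2 (-0.84), MCM10 (-0.90), CDC45 (-0.79) and CHAF1B (-0.76) followed, with edgeR adjusted p of 0.031, 0.046, 0.047 and 0.0499. The number called moved with each library left out. Those fits had no transfection term and assumed that the lone library of a line varies like the others. In the fit of all 4 libraries, the line difference did not pass for the other 40 members. E2F1, at 0.75 (SE 0.32), was the member with the largest value toward HEC-1-A.

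Other genes of replication were less uniform. Of 33 further replication genes, all measured in both lines, 26 were above 0 in RL-95-2 (median 0.37) and 16 in HEC-1-A (median 0.00). The highest in RL-95-2 were RNASEH2C, a subunit of the nuclease that removes ribonucleotides from DNA, at 1.10 (22.2 and 47.5 CPM), and CLSPN, the checkpoint mediator claspin, at 0.96. The lowest were POLD4, the smallest polymerase delta subunit, at -1.30 (25.9 and 10.5 CPM), and TOP1, the type I topoisomerase, at -0.45. The 18 further nucleotide supply genes had a median of 0.26 in RL-95-2 with 10 above 0, and 0.01 in HEC-1-A with 11 above 0. SAMHD1, which breaks down deoxynucleotides, was the highest at 1.69 (7.28 and 23.6 CPM), ahead of DCTPP1, a nucleotide-cleaning pyrophosphatase, at 1.24. GART, a purine synthesis enzyme, was the lowest at -0.60.

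Of 13 replication-coupled chromatin genes, 9 were above 0 in RL-95-2 (median 0.32) and 5 in HEC-1-A (median -0.13), with TONSL at 0.83, CDCA7 at 0.57, MMS22L at -0.22 and ASF1A, a histone chaperone gene, at -0.76. The E2F and RB family did not share the members' lean in RL-95-2, with 7 of 18 above 0 and a median of -0.03, and with 5 of 18 above 0 in HEC-1-A (median -0.04). Within it, E2F8 and E2F2 had 0.94 and 0.86, and TFDP2, a dimer partner of E2F proteins, and E2F5 had -0.87 and -0.84. Of 16 replication checkpoint genes, 5 were above 0 in RL-95-2 (median -0.07) and 8 in HEC-1-A (median 0.02). The RL-95-2 ratios ran from ATRIP and RAD9A at 0.81 and 0.80 to the kinase gene WEE1 at -0.57 and ZRANB3, a fork remodeler gene, at -1.09. None of these further genes passed the edgeR test over both lines. These lists are described by counts and medians, with no test of a list.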

How the data were processed

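Poly(A) RNA of 4 libraries was sequenced as paired reads on a DNBSEQ instrument, per the labels' protocols. Per gene, the authors deposited unnormalized counts together with FPKM. CASAVA, HISAT2 and GRCh38 (hg38) were used, per the submitters' processing notes. Not given in the sources used here: counter, annotation and strand use. Libraries were grouped by the transfection label and paired by the cell line named in the labels. The count test was the edgeR (4.0.16, under R 4.3.3) quasi-likelihood F test, with line and transfection as terms, genes kept by filterByExpr on transfection, TMM factors over the kept genes, and Benjamini-Hochberg adjustment at 0.05 over 15957 genes. That left 1 residual degree of freedom, moderated by 5.44 prior degrees. The labels do not say that libraries came from separate cultures, so the p-values describe nothing beyond the spread of these samples, which may be technical. In this fit that spread is how far the mimic over control ratios of the 2 lines differ. Genes with unlike ratios thus tend to get a larger error in the transfection and the line test. The SE was 0.45 and 0.46 for MCM5 and 0.23 in both tests for RPA2. Within a line, log2 ratios of TMM-scaled CPM used a prior count of 2, and exact 95% intervals came from the 2 counts. The procedure was tried on simulated counts that had the same mimic change in both lines. That trial does not cover genes whose changes differ between the lines. Positions and exon overlaps came from GENCODE 29, and promoters from RefSeq. PCLAF was found under its RefSeq synonym KIAA0101. Alternatives were DESeq2 1.42.0, limma 3.58.1 (voom, and log2(FPKM + 1) or log2(FPKM + 0.1)), and other scalings, filters and prior counts. Fits without the cell line term, without the transfection term and with libraries left out were also run. All members are named by their ratios, with levels for those 2-fold apart and the ends of each role group in RL-95-2, and some others. From other lists the 2 highest and 2 lowest in RL-95-2 are named, except 1 gene that is not reported here. Members, lists and motifs were chosen with earlier results of these data known.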

Additional observations from a re-analysis of the deposited data

Results flagged for a closer look

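The median log2 ratio of the 46 replication genes was 0.64 in RL-95-2 and -0.07 in HEC-1-A, opposite in sign. For 21 single genes the ratios also had opposite signs in the lines, with both counting intervals clear of 0 (45.7% of the 46, against 26.9% of 11913 genes). The difference between the lines was not tested, since each line has 1 library per transfection. Higher in the RL-95-2 mimic library and lower in that of HEC-1-A were MCM5 (1.58 and -0.30), GINS2 (1.47 and -0.42), UHRF1 (1.29 and -0.14), ORC1 (1.27 and -0.18), LIG1 (1.23 and -0.34), POLD1 (1.03 and -0.24), MCM4 (0.99 and -0.39), MCM3 (0.93 and -0.19), FEN1 (0.92 and -0.19) and POLE2 (0.90 and -0.21). The same held for MCM7 (0.82 and -0.36), PCNA (0.77 and -0.11), RRM2 (0.71 and -0.11), MCM2 (0.64 and -0.22), POLE (0.62 and -0.28), POLD3 (0.55 and -0.27), POLA1 (0.53 and -0.29), CDT1 (0.48 and -0.33), CHAF1A (0.35 and -0.12) and RPA2 (0.17 and -0.12). CDC6 was the reverse (-0.15 and 0.13).

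Across the 46 genes, the ratios in the lines had a Pearson correlation of -0.445 (Spearman -0.406), given as a description, since genes of 1 library share its depth and scaling. The RL-95-2 ratio correlated across the genes with GC content of the longest transcript at a Pearson r of 0.345 and with the log2 FPKM of the control library at -0.265.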

How the results depend on the processing

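The RL-95-2 median of 0.64 was 0.77 with scaling by the library total, 0.76 on log2(FPKM + 1) and 0.79 on log2(FPKM + 0.1), and the members at least 2-fold higher were then 14, 14 and 15 in place of 8. The first of these moved the median of all genes in RL-95-2 to 0.13, and the FPKM settings moved it to 0.11 and 0.14. With GC and length trends removed, an alternative chosen after seeing the data, the median was 0.67 and the number 8. In HEC-1-A the members above 0 were 7 on both FPKM settings in place of 12, and the median stayed between -0.12 and -0.07 under all alternatives run. Signs changed under at least 1 alternative for ORC6, PRIM1 and RFC4 in RL-95-2 and for POLA2, PRIM2, RFC1, RFC2, RPA1 and RRM1 in HEC-1-A. Over both lines, DESeq2 called 2 genes (PPAN-P2RY11 and SCHIP1-1) and limma on log2(FPKM + 0.1) 3, those and RP11-762I7.5, named after their values were seen. Each had 0 counts in both libraries of 1 transfection. Members called numbered 0 in each setting, also in the fit without the cell line term (0). Without HEC-1-A or RL-95-2 no test over both lines is left. For the line difference, RLE size factors called 3 members in place of 6, and leaving out 1 library gave 0 to 28 members and 3459 to 10546 genes in place of 5594. Why RLE size factors called fewer members was not tested.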
